A study of Mus musculus with 20 samples.

Results

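Cytochromes P450 of families 2 and 3 are heme enzymes of the endoplasmic reticulum that oxidize drugs, steroids, bile acids and fatty acids. The members described here were the protein-coding mouse genes whose symbol is Cyp2 or Cyp3 followed by a subfamily letter and a gene number, without Cyp2e1, and 55 of the 57010 genes in the count table fitted that rule. Transcripts were counted by bulk mRNA sequencing of liver and kidney from 12-month-old male UM-HET3 mice, a stock bred from a cross of several inbred strains in which each animal has its own genotype. The 7c mice carried subcutaneous osmotic minipumps for 28 days that released 7 compounds, and the vehicle mice carried pumps with the solvent alone, DMSO mixed with PEG300. The mixture held valproate, a histone deacetylase inhibitor, at 1 mg/kg per day. The other 6 were given at 0.1 mg/kg per day each: forskolin, which activates adenylyl cyclase, TTNPB, a retinoic acid receptor agonist, CHIR99021, an inhibitor of glycogen synthase kinase, DZNep, which lowers histone methylation, tranylcypromine, an inhibitor of a histone demethylase and of monoamine oxidases, and repsox, an inhibitor of the TGF-beta receptor kinase. There were 6 livers and 6 kidneys of 7c mice and 4 livers and 4 kidneys of vehicle mice, 20 libraries in all. No group was free of the pump and solvent, so the solvent's own effect on these genes could not be measured.

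P450 enzymes take electrons from the reductase Por and, for some reactions, from cytochrome b5. Members of subfamilies 2b, 2c and 3a are known for induction by foreign compounds through the nuclear receptors CAR and PXR, and several members of 2a, 2b, 2c and 2d differ between male and female mice. Most of the genes lie in clusters of related genes, and Cyp2c23 and Cyp3a13 stand apart from the others of their subfamilies. In the GRCm39 annotation, chromosome 7 held the 2a, 2b, 2f, 2g, 2s and 2t genes in 1 stretch, chromosome 19 the 15 genes of 2c, chromosome 15 the 9 genes of 2d, chromosome 4 the 8 genes of 2j and chromosome 5 the 7 genes of 3a. Some of these genes are alike enough that counting could be affected, which was not tested. For 7 members, over 10% of the 100-base stretches of their annotated transcripts also occurred in another gene, with Cyp2c69 at 34.3% and Cyp2c40 at 29.9% the highest, and 22 members had no such stretch.

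The library totals were 28383359 to 34153084 counts in liver and 27855849 to 64872451 counts in kidney. Members together took 1.79 to 2.33% of all counts in the 7c livers, 2.11 to 2.19% in the vehicle livers, 0.376 to 0.445% in the 7c kidneys and 0.417 to 0.456% in the vehicle kidneys. The labelled tissues carried their markers. The summed level of 18 hepatocyte genes was 132329 to 175092 CPM (counts scaled to a common library size, with trimmed mean of M-values factors over all libraries) in the livers and 121 to 323 CPM in the kidneys, and that of 10 proximal tubule genes was 30854 to 60067 CPM in the kidneys and 0.635 to 2.07 CPM in the livers. The liver of 7c replicate 6 also held skeletal muscle transcripts, with 823 CPM over 6 genes against at most 1.55 CPM in the vehicle livers. In bulk tissue, fewer cells of a type and less RNA per cell cannot be told apart.

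The sequences before the transcription start were compared for 3 sets of genes from the same subfamily, because these genes had different tissue levels in the libraries. Each is the 250 bases before the start of the GENCODE transcript marked as canonical, 5′ to 3′ on the gene's strand. Capitals mark letters matching 1 of 5 motifs searched on both strands of all 21770 such windows: CAAAGTCCA for HNF4A, GTTAAT for HNF1 (1 arm of the full site), TTGCNNAA for C/EBP factors, TTCNNNGAA for STAT5, and the steroid receptor palindrome. No matches of different motifs overlap in the windows shown. Cyp2a4, mostly of kidney, and Cyp2a5, higher in liver but present in both tissues, had 235 of 260 aligned positions in common (90.4%) and held the same pair of matches.
Cyp2a4, GRCm39 chr7:26006344-26006593, plus strand: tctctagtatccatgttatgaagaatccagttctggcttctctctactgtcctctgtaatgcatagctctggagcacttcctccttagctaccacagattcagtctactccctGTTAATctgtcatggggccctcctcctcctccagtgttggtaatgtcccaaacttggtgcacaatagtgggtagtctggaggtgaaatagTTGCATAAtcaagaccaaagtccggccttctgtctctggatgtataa
Cyp2a5, GRCm39 chr7:26534480-26534729, plus strand: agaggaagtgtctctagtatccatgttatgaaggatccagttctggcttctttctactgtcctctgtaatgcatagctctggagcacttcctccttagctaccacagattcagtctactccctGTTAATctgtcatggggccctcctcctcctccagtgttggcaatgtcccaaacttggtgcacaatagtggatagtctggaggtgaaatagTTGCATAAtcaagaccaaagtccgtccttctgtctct
Cyp2d9 and Cyp2d12 shared 207 of 258 aligned positions (80.2%), and neither held a match.
Cyp2d9, GRCm39 chr15:82336285-82336534, plus strand: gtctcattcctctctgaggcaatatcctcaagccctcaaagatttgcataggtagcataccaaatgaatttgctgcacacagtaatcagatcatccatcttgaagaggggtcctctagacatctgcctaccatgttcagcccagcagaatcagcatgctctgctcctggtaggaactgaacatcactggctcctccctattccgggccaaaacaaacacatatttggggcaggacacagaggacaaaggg
Cyp2d12, GRCm39 chr15:82438996-82439245, plus strand: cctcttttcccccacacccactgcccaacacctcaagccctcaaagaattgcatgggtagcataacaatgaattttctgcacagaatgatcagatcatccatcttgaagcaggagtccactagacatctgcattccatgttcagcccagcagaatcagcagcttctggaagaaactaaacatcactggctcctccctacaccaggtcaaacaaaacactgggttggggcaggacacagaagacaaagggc
Cyp2c67 and Cyp2c69 each held the HNF4A letters, which lay further from the start in Cyp2c67. Aligned over the whole of both windows, they shared 139 of 268 positions (51.9%). That value understates their likeness, because the windows cover shifted parts of a similar sequence. With the HNF4A letters lined up, most of the bases that both windows cover were the same. The window of Cyp2c40 was the same as that of Cyp2c69 at 247 of 250 positions.
Cyp2c67, GRCm39 chr19:39637501-39637750, minus strand: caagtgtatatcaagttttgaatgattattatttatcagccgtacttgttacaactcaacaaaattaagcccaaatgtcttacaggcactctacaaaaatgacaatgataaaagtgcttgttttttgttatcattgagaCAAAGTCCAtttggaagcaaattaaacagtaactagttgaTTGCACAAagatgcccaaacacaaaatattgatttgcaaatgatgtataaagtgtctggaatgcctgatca
Cyp2c69, GRCm39 chr19:39875244-39875493, minus strand: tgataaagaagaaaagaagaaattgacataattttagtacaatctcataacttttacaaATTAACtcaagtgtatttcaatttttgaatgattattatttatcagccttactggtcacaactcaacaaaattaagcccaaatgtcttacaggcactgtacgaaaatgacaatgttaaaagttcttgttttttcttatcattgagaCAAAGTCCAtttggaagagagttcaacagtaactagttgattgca
The HNF4A letters were in 7 of the 55 member windows (Cyp2c40, Cyp2c65, Cyp2c67, Cyp2c68, Cyp2c69, Cyp2c70 and Cyp3a16) and in 81 of all windows, 0.372%. The HNF1 letters were in 6 member windows against 6.28% of all windows, the C/EBP letters in 12 against 9.34%, the STAT5 letters in 2 against 7.70% and the steroid receptor letters in 1 against 0.299%. A match is only a run of letters in this window. The 7 genes with the HNF4A letters did not share a level. In vehicle livers Cyp2c70 had 1088 ± 306.5 CPM (SD, n = 4 here and in all vehicle values), Cyp2c67 823 ± 61.1, Cyp2c68 178 ± 45.4, Cyp2c40 4.24 ± 1.10, Cyp3a16 3.04 ± 1.22, Cyp2c69 1.71 ± 0.171 and Cyp2c65 0.0805 ± 0.138 CPM.

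The first comparison set liver against kidney in the vehicle mice, which carry no compound. Liver held the broad drug-metabolizing repertoire and kidney a short list led by Cyp2j and Cyp2a genes. In vehicle livers 20 members reached a mean of 100 CPM, and 5 had no count. In vehicle kidneys 8 members reached 100 CPM, and 5 had no count. Cyp2w1 was at 0 counts in all 20 libraries. Of the 45 members that passed the filter (10 counts in at least 50% of the 8 libraries), 35 were higher in liver and 6 higher in kidney by edgeR's quasi-likelihood test at an adjusted p under 0.05, while 25.7% of all 17245 genes tested were higher in liver and 27.7% lower. A member with counts in 1 tissue alone passed the filter through that tissue and had to differ, so the count describes these genes and does not test them. The median liver minus kidney log2 fold change was 7.35 over the 45 members and -0.06 over all genes.

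**Figure D1:**
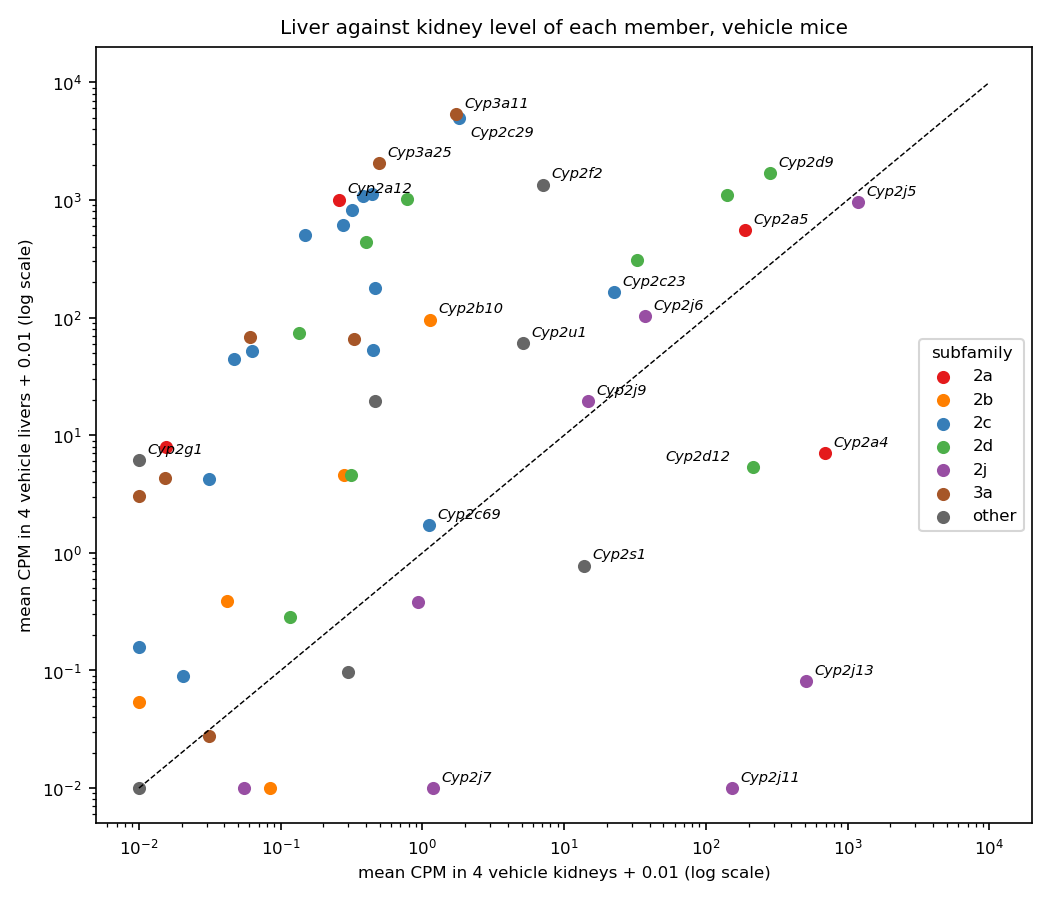
Mean level of each of the 55 members in the 4 vehicle kidneys (x axis, CPM + 0.01, log scale) and the 4 vehicle livers (y axis, same scale), with 1 point per gene coloured by subfamily and the dashed line at equal levels. Most points stand above the line, whereas the 6 genes called higher in kidney, Cyp2a4, Cyp2d12, Cyp2j7, Cyp2j11, Cyp2j13 and Cyp2s1, stand below it, with Cyp2j5 just below it and a few genes of low level.

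The most abundant members in liver were Cyp3a11, the main PXR-responsive drug oxidase of mouse liver, and Cyp2c29, an abundant enzyme that also oxidizes arachidonic acid. The vehicle livers had 3924, 4455, 6267 and 6877 CPM of Cyp3a11 and 5973, 5574, 4495 and 3772 CPM of Cyp2c29. The vehicle kidneys had 1.79, 2.33, 1.44 and 1.28 CPM of Cyp3a11 and 3.06, 1.61, 0.977 and 1.62 CPM of Cyp2c29. The mean level was thus 3146 times higher in liver for Cyp3a11 and 2729 times for Cyp2c29. Among the 4 vehicle livers, those with more Cyp2c29 had less Cyp3a11, while the 7c livers had no such order. Both genes together took 36.4 to 43.1% of the member counts in the vehicle livers and 31.9 to 43.3% in the 7c livers. Per kilobase of exon, which allows genes to be ranked against each other, Cyp2c29 led the vehicle livers at 1488 CPM/kb, ahead of Cyp3a11 at 1033, Cyp2d9 at 596, Cyp2d26 at 521, Cyp2c67 at 419, Cyp2f2 at 405 and Cyp2c70 at 396.

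By subfamily, all 6 tested 3a members and 12 of 13 tested 2c members were higher in liver. Cyp3a25 had 2064 ± 407 CPM in liver and 0.481 ± 0.169 CPM in kidney, a log2 fold change of 12.05 ± 0.35 (SE). Cyp2c70, which makes the muricholic acids of mouse bile, had 0.370 ± 0.267 CPM in kidney, a log2 fold change of 11.50. Cyp2c50 had 1118 ± 405 CPM in liver and 0.428 ± 0.390 CPM in kidney. Cyp2c23 was higher in liver by 2.86 ± 0.83 on the log2 scale (edgeR adjusted p = 0.0126), a call lost without vehicle replicate 4 (2.83, edgeR adjusted p = 0.0544). The exception among 2c was Cyp2c69, at 1.71 ± 0.171 CPM in liver and 1.10 ± 0.317 CPM in kidney (log2 fold change 0.64 ± 0.37, edgeR adjusted p = 0.167), while Cyp2c40 with its near-identical start window had 4 counts in the 4 vehicle kidneys together against 193 for Cyp2c69. Reads of the pair could not be fully separated, given their shared stretches.

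The single-gene subfamilies were mostly of liver. Cyp2f2, known for oxidizing naphthalene in lung and liver, had 1783, 1419, 1106 and 1091 CPM in the vehicle livers and 5.09, 12.3, 6.14 and 4.71 CPM in the vehicle kidneys, and the mean was 191 times higher in liver. Cyp2r1, which adds the first hydroxyl group to vitamin D, had 19.7 ± 4.86 CPM in liver and 0.451 ± 0.310 CPM in kidney (log2 fold change 5.40 ± 0.59). Cyp2u1, a fatty acid hydroxylase, had 61.0 ± 10.995 and 5.11 ± 1.79 CPM (3.57 ± 0.26). Cyp2g1, best known from the olfactory mucosa, had 671 counts over the vehicle livers and none in any of the 10 kidneys, which is at least 288-fold higher in liver against a floor of 3 counts over the vehicle kidneys. Cyp2s1 went the other way, at 0.768 ± 0.328 CPM in liver and 13.9 ± 2.05 CPM in kidney (-4.18 ± 0.31). Cyp2t4 stayed at 0.0873 ± 0.109 CPM in liver and 0.289 ± 0.273 CPM in kidney and did not pass the filter. Among the 2b genes, Cyp2b10, the classic CAR target, had 96.2 ± 51.0 CPM in liver and 1.12 ± 0.455 CPM in kidney, and Cyp2b9, which is higher in female than in male liver, 4.54 ± 2.27 and 0.271 ± 0.165 CPM.

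In the 2a subfamily, close copies differed in tissue. Cyp2a5, the coumarin hydroxylase, had 501, 632, 736 and 329.8 CPM in the vehicle livers and 168, 242, 187 and 161 CPM in the vehicle kidneys, so the tissues did not overlap and the mean was 2.90 times higher in liver (log2 fold change 1.54 ± 0.24, edgeR adjusted p = 0.000278). Cyp2a4, a testosterone hydroxylase, had 3.02, 4.48, 16.8 and 3.69 CPM in the livers and 688, 952, 562 and 557 CPM in the kidneys, 98.7 times higher in kidney (log2 fold change -6.62 ± 0.60, edgeR adjusted p = 3.36e-06). Of the 100-base stretches of Cyp2a4 transcripts, 14.7% also occurred in Cyp2a5, so a part of either count could come from the other gene. Cyp2a12 and Cyp2a22 were liver genes, at 1007 ± 101 and 7.93 ± 4.54 CPM, and the vehicle kidneys held 44 counts and 1 count of them. In 2d, 7 of 8 tested members were higher in liver, led by the male-biased testosterone hydroxylase Cyp2d9 (1694 ± 294 CPM in liver and 283 ± 106 CPM in kidney) and by Cyp2d26 (1098 ± 61.2 and 139.9 ± 50.9 CPM). Cyp2d12 was the exception, at 5.35 ± 0.958 CPM in liver and 213 ± 56.5 CPM in kidney, 39.9 times higher in kidney (log2 fold change -5.32 ± 0.24).

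The 2j genes, which include epoxygenases of arachidonic acid, were spread over both tissues and made up 47.5 to 57.3% of the member signal in the vehicle kidneys. Cyp2j5 was abundant in both tissues, at 1051, 1007, 875 and 923 CPM in the vehicle livers and 1216, 1191, 1214 and 1118 CPM in the vehicle kidneys. Each kidney was above each liver, but the difference did not pass the test (log2 fold change -0.30 ± 0.13, edgeR adjusted p = 0.0801). That adjusted p lay between 0.00122 and 0.124 under other tools, scalings and filters, and was 0.0261 without vehicle replicate 2. Cyp2j9 had 19.4 ± 2.99 CPM in liver and 14.7 ± 1.76 CPM in kidney (0.40 ± 0.16, edgeR adjusted p = 0.0593, and from 0.0482 to 0.951 under the other settings). Cyp2j6 was 2.79 times higher in liver, at 103 ± 10.4 CPM. Neighbouring genes of the cluster were of kidney: Cyp2j13 had 566, 509.6, 427 and 542 CPM in the vehicle kidneys and 8 counts in the 4 vehicle livers together. Cyp2j11 had 152 ± 11.1 CPM in kidney and no count in any vehicle liver, at least 6726-fold higher in kidney. Cyp2j7 had 1.18 ± 0.270 CPM in kidney and no count in the vehicle livers, at least 52.3-fold higher. Per kilobase of exon, Cyp2a4 led the vehicle kidneys at 397 CPM/kb, followed by Cyp2j5 at 268, Cyp2j13 at 108, Cyp2d9 at 99.4, Cyp2a5 at 91.5 and Cyp2j11 at 78.5. Cyp2a4, Cyp2j5 and Cyp2j13 together took 65.6 to 71.3% of the member counts in the vehicle kidneys.

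**Figure D2:**
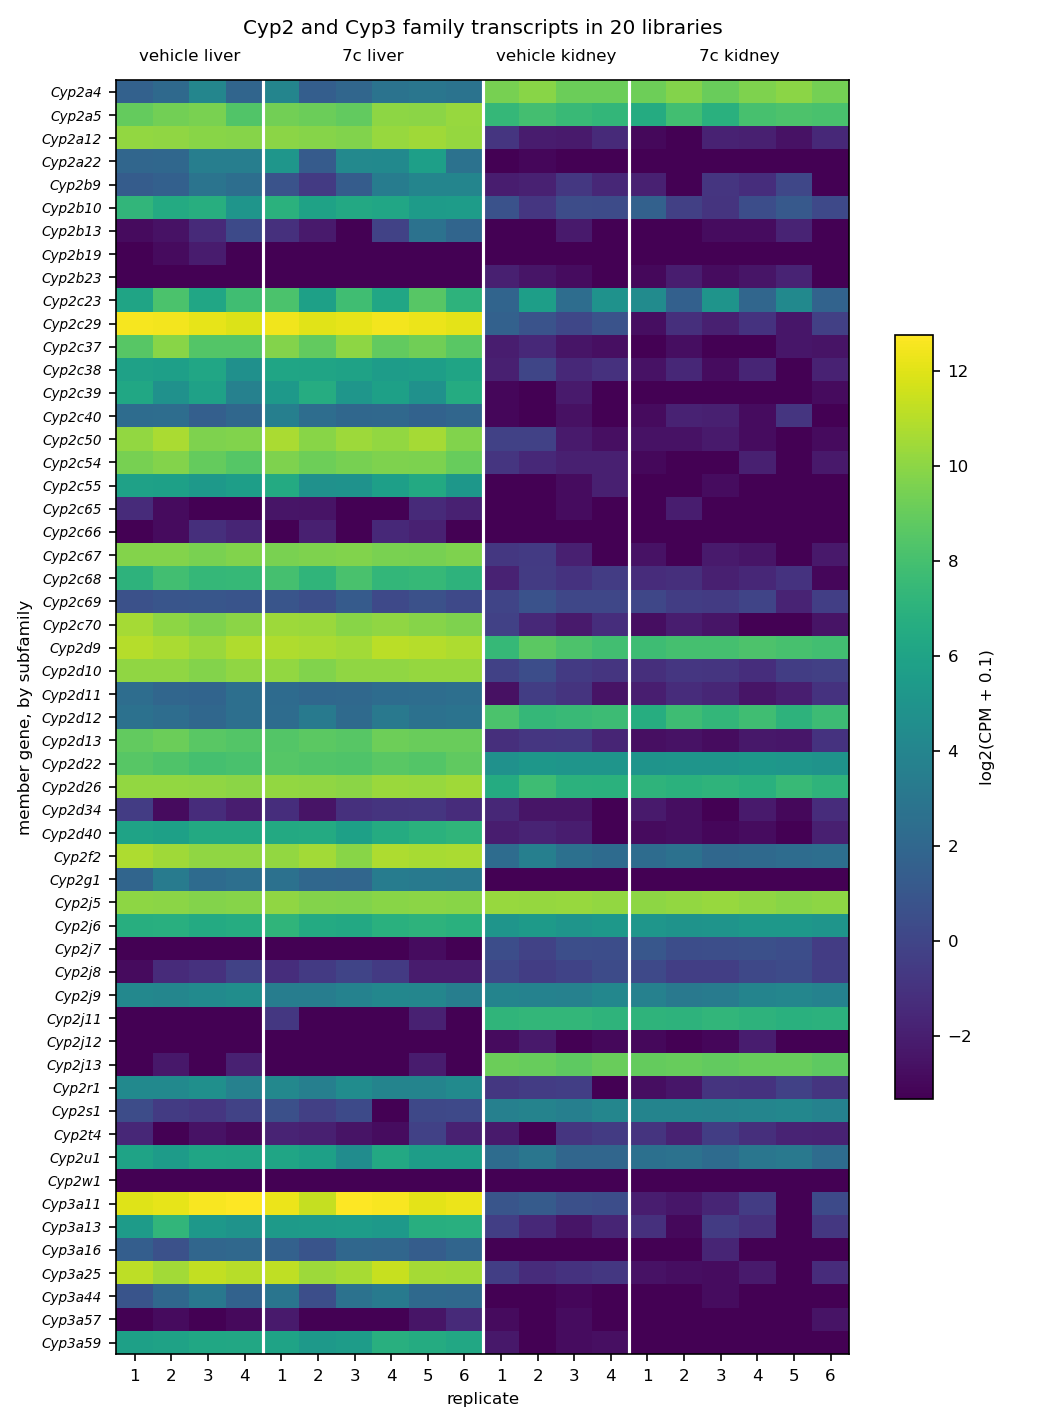
Level of all 55 members in each of the 20 libraries, as log2(CPM + 0.1) on the colour scale, with genes in rows by subfamily and libraries in columns by group and replicate. The tissue boundary shows in most rows, while Cyp2j5, Cyp2j6, Cyp2j9 and Cyp2c69 have like colours on both sides.

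Genes that serve the enzymes were compared in the same way. Of 14 electron transfer and heme genes, 9 were higher in liver and 1 in kidney. The latter was Por, the reductase that feeds all of these enzymes, at 148 ± 20.6 CPM in liver and 312 ± 22.3 CPM in kidney (log2 fold change -1.08 ± 0.14, edgeR adjusted p = 5.47e-05). Of 14 regulators, 10 were higher in liver and 1 in kidney, Cux2. Nr1i3, which encodes CAR, had 34.0 ± 12.0 CPM in liver and 0.0264 ± 0.0402 CPM in kidney, and Nr1i2, which encodes PXR, 76.0 ± 10.4 and 6.51 ± 1.60 CPM. Hnf4a, whose product is a main activator of hepatocyte genes, had 746 ± 130 CPM in liver and 804 ± 35.7 CPM in kidney and did not pass the test (edgeR adjusted p = 0.598). Among all genes tested, 25.7% were higher in liver and 27.7% in kidney.

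The second comparison asked whether the 28-day 7c treatment changed these transcripts in liver. No member passed the threshold. Of 42 members tested, 0 had an adjusted p under 0.05 by edgeR's quasi-likelihood test, against 0.00666% of all genes tested, and 2 had an unadjusted p under 0.05, 4.76% against 3.76% of all genes. DESeq2, the edgeR likelihood ratio test and limma-voom also called 0, as did edgeR without the liver of 7c replicate 6 that held muscle transcripts. The fold change was above 0 for 30 of the 42, where 50.4% of all genes were, and the median log2 fold change was 0.08 against 0.0017 over all genes. The 42 genes share libraries and neighbours, so they are not separate observations. No member had all 7c livers above or below all vehicle livers, against 0.373% of all genes above and 0.293% below.

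The lowest p in liver belonged to Cyp2j9. The 7c livers had between 11.02 and 17.3 CPM, with a median of 12.8, and the vehicle livers had 17.7, 16.4, 20.3 and 23.1 CPM. Of the 6 7c livers, 5 lay below every vehicle liver (log2 fold change -0.54 ± 0.17, unadjusted p = 0.00609, edgeR adjusted p = 1.00, n = 6 and 4). Cyp2a22 had 2.38 to 54.3 CPM in the 7c livers, with a median of 19.0, and 3.92, 4.08, 11.9 and 11.9 CPM in the vehicle livers, and the group ranges overlapped (1.46 ± 0.67, unadjusted p = 0.0472, edgeR adjusted p = 1.00). The fold change of Cyp2a22 was 0.89 to 1.48 under other settings and 0.99 to 1.73 without 1 library at a time. The next 3 by p were Cyp2a5 (0.56 ± 0.28), Cyp2d40 (0.41 ± 0.22) and Cyp2d22 (0.22 ± 0.12). By subfamily, fold changes above 0 were found for 4 of 4 tested members of 2a, 8 of 8 of 2d, 9 of 13 of 2c, 3 of 6 of 3a, 2 of 4 of 2j and 1 of 2 of 2b, without any passing the test.

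The xenobiotic-inducible genes did not pass in liver. Cyp3a11 had 2598 to 6842 CPM in the 7c livers, with a median of 5005, against 3924 to 6877 CPM in the vehicle livers (log2 fold change -0.13 ± 0.24). Cyp2c29 had 4141 to 5709 CPM, with a median of 4742, against 3772 to 5973 CPM (-0.06 ± 0.13). Cyp2b10 had 45.4 to 123 CPM, with a median of 67.0, against 32.5 to 156 CPM (-0.44 ± 0.35), and the value was -0.11 without vehicle replicate 1 and -0.73 without vehicle replicate 4. Among the 6 members listed as CAR or PXR induced, 3 were above 0 and 3 below. Cyp2a4, Cyp2d9, Cyp2f2 and Cyp2j5 had log2 fold changes of 0.01, 0.06, 0.05 and -0.04.

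**Figure D3:**
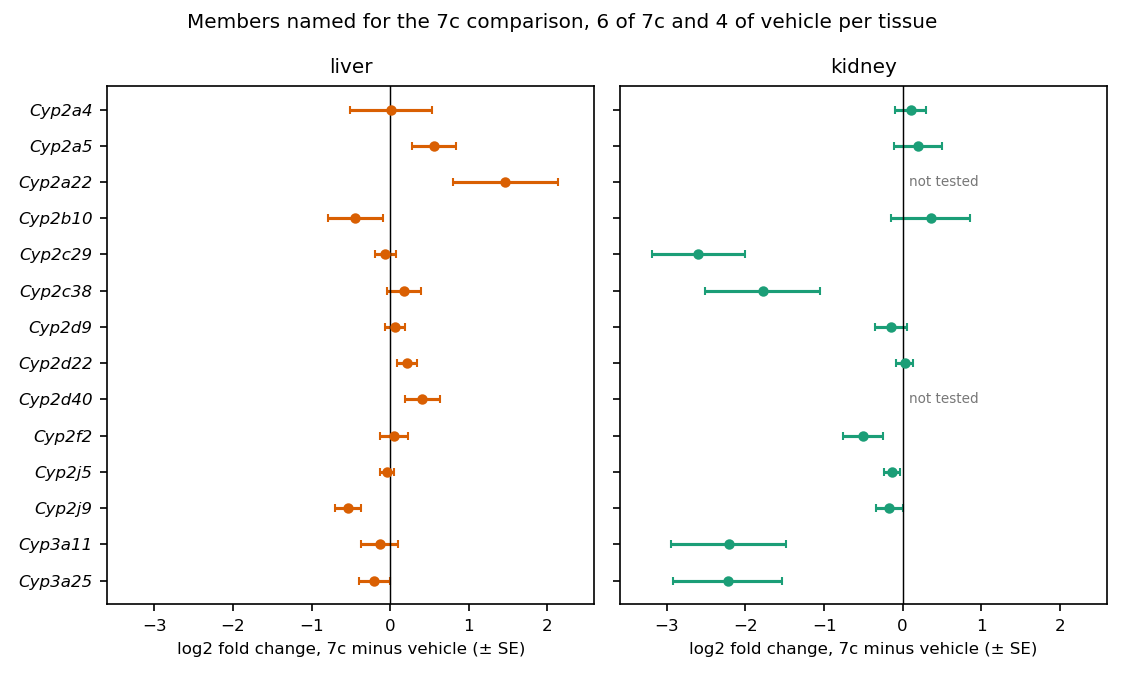
Log2 fold change of 7c minus vehicle with its standard error (x axis) for the 14 members named for this comparison (y axis), all 14 in liver (left) and 12 in kidney (right), where Cyp2a22 and Cyp2d40 were not tested, from 6 libraries of 7c and 4 of vehicle per tissue. In liver the values lie between -0.54 and 1.46, and in kidney Cyp2c29, Cyp3a11, Cyp3a25 and Cyp2c38 lie between -2.60 and -1.78 while the others lie between -0.50 and 0.36.

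Alas1 and Por had the lowest p among the 14 partner genes in liver. Alas1, the rate-limiting enzyme of heme synthesis, had 221 ± 128 CPM in the 7c livers (n = 6) and 69.5 ± 54.8 CPM in the vehicle livers (log2 fold change 1.65 ± 0.56, unadjusted p = 0.0117, edgeR adjusted p = 1.00). Por had 188 ± 37.5 and 148 ± 20.6 CPM (0.33 ± 0.14, unadjusted p = 0.0379, edgeR adjusted p = 1.00). Neither passed the threshold, and 12 of the 14 had fold changes above 0. Alas1 was also above the vehicle mean in kidney, at 134 ± 30.7 against 102 ± 19.1 CPM (0.38 ± 0.17, unadjusted p = 0.0479, edgeR adjusted p = 0.997). Of the 14 regulators tested in liver and the 12 tested in kidney, 0 passed in either tissue and 0 had an unadjusted p under 0.05.

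The third comparison set 7c against vehicle in kidney. Of 30 members tested, 0 passed the edgeR quasi-likelihood test, where 0.00% of all 17749 genes did. The unadjusted p was under 0.05 for 4, 13.3% against 2.61% of all genes, and all 4 were lower in 7c kidneys: Cyp2c29, Cyp3a25, Cyp3a11 and Cyp2c38. Cyp3a25 passed the filter of 10 counts in at least 50% of the 10 kidneys through all 4 vehicle kidneys and 1 of the 6 7c kidneys, which favoured a lower value in 7c, so the share is a description. Fold changes above 0 were found for 10 of the 30, against 49.0% of all genes, and the median was -0.14 against -0.01. All 7c kidneys lay below all vehicle kidneys for 3 of the 30, where 0.366% of all genes did, and none lay above, where 0.349% did.

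These 3 were genes of liver that kidney held at low counts. Cyp2c29 had 4, 14, 8, 20, 4 and 38 counts in the 7c kidneys and 147, 72, 46 and 58 counts in the vehicle kidneys, that is 0.0488 to 0.725 CPM (median 0.256) against 0.977 to 3.06 CPM. The log2 fold change was -2.60 ± 0.59 (unadjusted p = 0.0008, edgeR adjusted p = 0.997). Cyp3a11 had 12, 4, 10, 30, 0 and 58 counts in the 7c kidneys and 86, 104, 68 and 46 in the vehicle kidneys (-2.21 ± 0.73, unadjusted p = 0.0104, edgeR adjusted p = 0.997). Replicate 6 of 7c, with the highest counts of its group for both genes, was closest to the vehicle kidneys. Cyp3a25 had 6, 2, 2, 6, 0 and 16 counts against 34, 14, 19 and 18 (-2.23 ± 0.69, unadjusted p = 0.00676, edgeR adjusted p = 0.997). For Cyp3a25 the counts overlapped, and the groups were apart only after scaling, at no more than 0.305 CPM in 7c and no less than 0.313 CPM in vehicle kidneys. Non-overlap in CPM chose these 3 genes, so it is given as a description. Cyp2c38 had 0 to 10 counts in the 7c kidneys against 8, 42, 12 and 14 (-1.78 ± 0.73), its groups overlapped, and the value was -1.08 without vehicle replicate 2, the highest.

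The call for Cyp2c29 depended on the test. DESeq2 gave it an adjusted p of 0.0163, the edgeR likelihood ratio test 0.0277 and an edgeR fit of both tissues together 0.00677, so each of these called 1 member in kidney. The other alternatives called 0, and without 1 library at a time the adjusted p of Cyp2c29 in edgeR was between 0.388 and 1.00.

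Hepatocyte markers are given beside these genes. To compare them on 1 scale, each kidney level was expressed as a percent of the gene's mean level over the 10 livers. Members were grouped by their vehicle level. For 15 of the 31 members with at least 10 CPM in liver, Cyp2c29, Cyp3a11 and Cyp3a25 among them, the vehicle median was at or below 0.1%, and the same held for 13 of the 18 hepatocyte markers. The median over these 15 members was 0 to 0.0149% in the 7c kidneys and 0.0216 to 0.0627% in the vehicle kidneys. The median over the 18 hepatocyte markers was 0.0132 to 0.0311% in the 7c kidneys and 0.0338 to 0.0788% in the vehicle kidneys. Neither measure overlapped between the groups. Of the 17 hepatocyte markers tested in kidney, 15 had fold changes below 0, with a median of -0.94 and a range of -2.99 to 0.58, 7 had an unadjusted p under 0.05 and 0 passed the threshold. Their summed level did overlap, at 121 to 315 CPM in 7c and 217 to 323 CPM in vehicle kidneys, and Ttr, the 1 marker above 1% of its liver level, made up most of it at 148 ± 75.3 CPM in 7c and 156 ± 29.4 CPM in vehicle kidneys. No hepatocyte marker was at 0 in either group. Fat cell markers had a summed level of 47.7 to 137 CPM over 8 genes in the 7c kidneys and 29.7 to 39.9 CPM in the vehicle kidneys, where only Ucp1 was at 0. Of the 7 tested, all 7 had fold changes above 0 with an unadjusted p under 0.05, a median of 2.14, and 0 passed the threshold (lowest edgeR adjusted p = 0.997). The part of these markers in the values of the P450 genes was not tested.

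**Figure D4:**
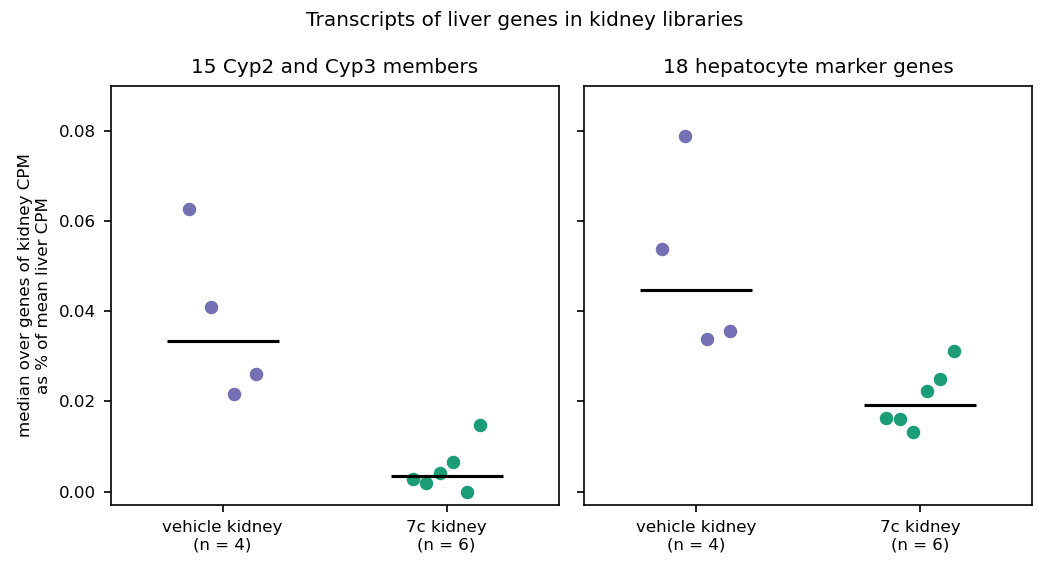
Kidney level as a percent of the mean liver level (y axis), as the median over 15 P450 members (left) and over 18 hepatocyte markers (right), with 1 point per kidney library and the bar at the group median. In both panels the 6 points of 7c, from 0 to 0.0149% and from 0.0132 to 0.0311%, lie below the 4 points of vehicle, from 0.0216 to 0.0627% and from 0.0338 to 0.0788%.

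None of the 8 members with at least 100 CPM in vehicle kidney passed in the 7c comparison. Cyp2j11 had the lowest p of them, with 137.8, 134, 154, 132, 116 and 126 CPM in the 7c kidneys and 148, 162, 160.1 and 138 CPM in the vehicle kidneys. Of the 6 7c kidneys, 5 lay below every vehicle kidney (log2 fold change -0.20 ± 0.10, unadjusted p = 0.0747, edgeR adjusted p = 0.997). Cyp2a4 had 545 to 994 CPM in the 7c kidneys, with a median of 730.3, against 557 to 952 CPM in the vehicle kidneys (log2 fold change 0.10 ± 0.20). Cyp2j5 had 966 to 1242 CPM, with a median of 1078, against 1118 to 1216 CPM (-0.13 ± 0.10). Cyp2j13 had 432 to 522 CPM against 427 to 566 CPM (-0.06 ± 0.11). Cyp2d12 had 101 to 224 CPM against 164 to 294 CPM (-0.32 ± 0.23), and Cyp2d26 had 119 to 181 CPM against 93.2 to 212 CPM (0.01 ± 0.20). Cyp2d9 had 218 to 306 CPM against 173 to 419 CPM (-0.15 ± 0.20), and Cyp2a5 had 92.9 to 310.4 CPM against 161 to 242 CPM (0.19 ± 0.30). Cyp2f2, a gene of low level in kidney and the fifth of all members by p, had 3.95 to 6.38 CPM against 4.71 to 12.3 CPM (-0.50 ± 0.25), and without vehicle replicate 2, the highest, the value was -0.0944.

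Whether the 7c difference was unlike in the tissues was tested as a treatment by tissue term on 26 members that passed the filter in both. None passed, against 0.00706% of all genes, and 5 had an unadjusted p under 0.05, 19.2% against 2.49% of all genes. For all 5 the term, liver minus kidney, was positive. Their 7c minus vehicle log2 fold changes were -0.20 to 0.18 in liver and -2.60 to -0.63 in kidney. Cyp2c29 had the lowest p (difference of the log2 fold changes 2.55 ± 0.54, unadjusted p = 0.000108, edgeR adjusted p = 0.190). The others were Cyp3a25 (1.99 ± 0.55), Cyp2c38 (1.96 ± 0.62), Cyp3a11 (2.07 ± 0.67) and Cyp2d10 (0.71 ± 0.32). DESeq2 and the likelihood ratio test each called 2, Cyp2c29 and Cyp3a25, and edgeR called Cyp2c29 without 7c replicate 6 (adjusted p = 0.0212) and without the filter (0.0324), while its adjusted p over all alternatives was between 0.0047 and 0.938. For Cyp3a25 the adjusted p in edgeR was 1.00 without any 1 of 7c replicates 1 to 5, and without 7c replicate 6 or any 1 vehicle replicate the gene did not pass the filter, which it met in kidney mainly through the vehicle libraries. These terms rest on the same low kidney counts.

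In liver, single mice of a group differed more in many of these genes than in most others. The SD of log2 CPM within groups had a median of 0.38 over 31 liver members with at least 10 CPM and 0.20 over all 8342 such genes, and 16 of the 31 were above the 90th percentile of all genes. In kidney the median was 0.29 over 13 members and 0.24 over all 8527 genes, with 2 above the 90th percentile, Cyp2c23 and Cyp2a5. The lowest SD in kidney was that of Cyp2j5, at 0.10. In liver the most variable were Cyp2a22 (SD 1.41), Cyp2c23 (1.10), Cyp2c39 (0.92), Cyp3a13 (0.83) and Cyp2b10 (0.73), and the least variable was Cyp2c67 (0.10).

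Cyp2c23, an arachidonic acid epoxygenase whose gene stands apart from the rest of the chromosome 19 cluster, had separate high and low livers in both treatment groups. Replicates 1, 3 and 5 of 7c had 291, 223 and 373 CPM and replicates 2 and 4 of vehicle 294 and 222 CPM, while the other 7c livers had 57.2, 71.7 and 134 CPM and the other vehicle livers 65.8 and 73.2 CPM. The kidneys with the same replicate numbers were high too, at 21.4, 32.0 and 19.3 CPM in 7c and 52.0 and 29.2 CPM in vehicle, and the other kidneys had 2.93, 3.78 and 3.44 CPM in 7c and 3.53 and 5.16 CPM in vehicle. Cyp2c39 was at its lowest in the same 5 livers, with 41.5, 34.1 and 27.7 CPM in 7c and 28.4 and 13.3 CPM in vehicle against 56.0 to 100.4 CPM in the other 5. It was chosen for description after its values were seen. The labels do not state that a liver and a kidney with 1 number came from 1 mouse. Other members had other patterns: Cyp2c37 was at 862 and 1038 CPM in 7c livers 1 and 3 and 933 CPM in vehicle liver 2, and at 348 to 609.7 CPM in the rest, and Cyp3a13 was at 106 and 110.2 CPM in 7c livers 5 and 6 and 151 CPM in vehicle liver 2, against 30.2 to 46.4 CPM in the rest.

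**Figure D5:**
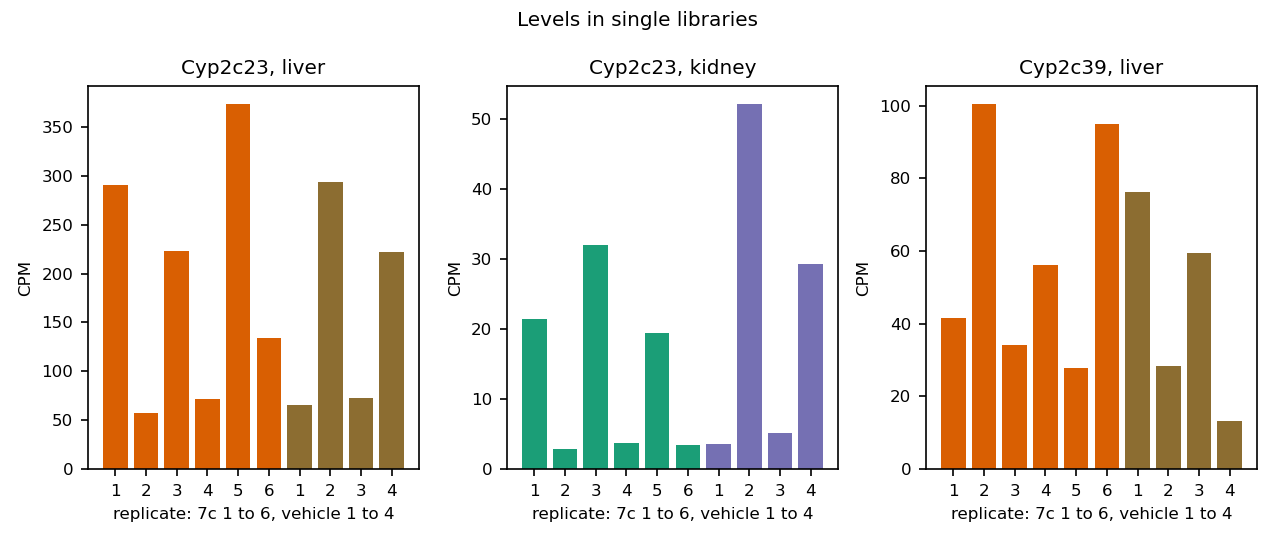
CPM of Cyp2c23 in each liver (left) and kidney (middle) and of Cyp2c39 in each liver (right), with 1 bar per library, replicates 1 to 6 of 7c followed by replicates 1 to 4 of vehicle. Cyp2c23 is high in 7c replicates 1, 3 and 5 and vehicle replicates 2 and 4 of both tissues, and Cyp2c39 is lowest in the livers of these numbers.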

How the data were processed

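Messenger RNA of liver and kidney was sequenced from stranded poly(A) libraries. Per the labels and the submitters' processing notes, the authors aligned reads with STAR 2.7.11b to GRCm39 and counted them per gene with featureCounts 2.0.6. The deposited values are raw counts for 57010 Ensembl genes in 20 libraries. Strand, multi-mapping and read-pair settings of the counting are not given in the sources used here. Of all counts between 1 and 20, 78.6% were even, so mates may have been counted separately, and low counts then carry less information than their size. Floors cover counting error only, with each count taken as independent. The SD and SE values given after ± also hold the spread between mice.

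Names, positions and start sites came from GENCODE for GRCm39 by Ensembl identifier, which matched 56310 genes. The 700 others, with 0.0417% of counts, stayed in library sizes and tests. The study used a one-way model in edgeR, and which of its tests is not given in the sources used here, so the likelihood ratio test was run as an alternative. Members were read off fits across all genes with edgeR 4.0.16 (R 4.3.3), using TMM factors, a quasi-likelihood F-test of treatment within each tissue, genes with 10 counts in at least 50% of samples, and Benjamini-Hochberg adjustment with a threshold of 0.05. Standard errors are the absolute log2 fold change over the root of F. CPM in the text use TMM factors over all 20 libraries. Each floor is 3 counts over a group. The tests were tried on simulated data. Alternatives used limma 3.58.1 and DESeq2 1.42.0.

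The members, gene lists and named genes were chosen with earlier results of these data known. Named were the 2 members of each larger subfamily with the highest mean in vehicle liver and kidney, all members of subfamilies with 1 or 2 genes, the 5 lowest p in each tissue, members whose groups did not overlap, and Cyp2c29, Cyp3a11, Cyp2b10, Cyp2a4, Cyp2a5, Cyp2d9, Cyp2j5 and Cyp2f2, 28 in all. Other members are named where a result turns on them, after their values were seen. P-values set a group difference against the spread between these samples. Same-numbered liver and kidney libraries deviated together over 14163 genes in 7 of 10 pairs (r above 0.1), with r from 0.013 to 0.259, which was short of the rule for pairs.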

Additional observations from a re-analysis of the deposited data

Results flagged for a closer look

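Of 105 groups of values of the named members, 5 held 1 library apart from the others by Dixon's criterion, and chance marks about 1 group in 20. Cyp2a4 stood at 16.8 CPM in vehicle liver replicate 3, where the other vehicle livers had 3.02 to 4.48 CPM. Without this library the 7c minus vehicle log2 fold change of Cyp2a4 in liver was 0.94 in place of 0.01. Cyp2t4 stood at 0.772 CPM in 7c liver replicate 5 (others 0.0427 to 0.210 CPM). The other 3 rest on few counts: Cyp2d40 at 0.172 CPM in 7c kidney replicate 6 (others 0 to 0.0489 CPM), Cyp2j13 at 0.136 CPM in 7c liver replicate 5 (others 0) and Cyp2a22 at 0.0224 CPM, 1 count, in vehicle kidney replicate 2 (others 0).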

How the results depend on the processing

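No P450 member was called in liver under any alternative run. In kidney, DESeq2, the edgeR likelihood ratio test and a fit of both tissues called 1 each, against 0. For treatment by tissue, DESeq2 and the likelihood ratio test called 2 each, edgeR without the filter 1 and leaving out 1 replicate 0 to 1, against 0. The cause was not tested. Liver against kidney gave 40 to 43 calls. Halving all counts, added after seeing the data because low counts were mostly even, changed no number of calls. Low counts limit Cyp2c29, Cyp3a11, Cyp3a25 and Cyp2c38 in kidney.

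With the replicate number as a block the members called were 0 in liver, 0 in kidney, 0 for treatment by tissue and 41 for liver against kidney. Replicates 5 and 6 were of 7c alone, so within a tissue the blocked 7c difference rested on replicates 1 to 4. Among values that were not called, the block took the liver log2 fold change of Cyp2a5 from 0.56 to 0.26, of Cyp2d40 from 0.41 to 0.14 and of Cyp2b10 from -0.44 to -0.0646. The block turned the log2 fold change of Cyp2f2 in liver to -0.0700, that of Cyp2a5 in kidney to -0.22 and the treatment by tissue term of Cyp2a4 to 0.11. The numbers were not accepted as pairs. Same-numbered 7c and vehicle libraries had r above 0.1 in 1 of 8 cases. These came from different mice, so they cannot show whether a liver and a kidney shared a mouse. Between the tissues, 8 of 10 libraries correlated best with their own number in the other tissue, a hint from the data. The planned correlation of liver and kidney levels over mice is therefore not given.

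Leaving out 1 replicate changed the sign of some small log2 fold changes, none of them called. In liver the ranges were -0.35 to 0.94 for Cyp2a4, -0.16 to 0.0426 for Cyp2c29, -0.0359 to 0.39 for Cyp2c38, -0.0338 to 0.15 for Cyp2d9, -0.0311 to 0.21 for Cyp2f2 and -0.26 to 0.0137 for Cyp3a11. In kidney they were -0.00119 to 0.30 for Cyp2a4, -0.00856 to 0.58 for Cyp2b10, -0.0450 to 0.0756 for Cyp2d22 and -0.32 to 0.10 for Cyp2d9. For treatment by tissue they were -0.52 to 0.92 for Cyp2a4 and -0.0442 to 0.47 for Cyp2d9.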
